A study of Mus musculus with 18 samples.

Results

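Satellite peaks are H3K4me3 peaks that were called in one list alone and lie beside a peak of the other list. They were taken from the peak lists of pancreatic islets of Men1 knockout mice and of RIP-Cre control mice. Members were selected on peak positions alone, that is, on overlap and distance between the lists. No limit was set on score or width, though overlap itself depends in part on width. A satellite is an autosomal peak that overlaps no peak of the other list by 1 bp or more and has one within 5000 bp. The rule found 1009 satellites, 410 in the knockout list and 599 in the control list, among 41967 autosomal peaks and 43339 peaks in all. The peak of the other list nearest to a satellite is called its main peak.

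The series holds 18 ChIP-seq samples of 2 genotypes at 2, 6 and 12 months of age, and the 2 H3K4me3 lists at 2 months were used here, with 1 library per genotype. The knockout mice carry what the labels call an islet-specific knockout of Men1, and the labels do not name the Cre driver of that knockout. The control mice carry RIP-Cre, that is, Cre recombinase driven by the rat insulin promoter, which is active in beta cells. Both genotypes are on a mixed background of C57BL/6, FVB/N and 129s6, and the material of both is labelled as pancreatic islets, which hold other cell types beside beta cells. The labels do not say how many animals went into a library. The other 16 samples were not analysed here.

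H3K4me3, trimethylation of lysine 4 on histone H3, sits on the nucleosomes around the start sites of active and poised genes. Menin, the product of Men1, is a subunit of the histone methyltransferase complexes built around KMT2A and KMT2B, which place this mark. Loss of menin is known to give rise to tumours of endocrine cells, islet cells among them. The mark is often spread over several nucleosomes on both sides of a start site, so a peak caller may report a marked region as a single interval or as several. The lists hold such intervals with a score and no gene names, so the islet label was not checked against marker genes, and satellites are given by their mm9 position.

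Satellites were a small part of the marked genome in both genotypes. They made up 1.98% of the autosomal knockout peaks (410 of 20752) and 2.82% of the autosomal control peaks (599 of 21215). Together they covered 295 kb in the knockout list and 518 kb in the control list, or 0.795% and 1.26% of the autosomal length of each list. Peaks absent from the other list, near or far, were 8.75% of knockout peaks and 12.7% of control peaks. Satellites were a like share of these one-list peaks in both genotypes, with 22.6% in the knockout list (exact 95% interval 20.7 to 24.6) and 22.2% in the control list (interval 20.6 to 23.8). Shared peaks stood near a further peak of the other list, one they did not overlap, nearly as often. This was so for 19.7% of shared knockout peaks and 18.6% of shared control peaks. All values below describe this pair of lists, and since the same overlaps and distances chose the members, none is a test of a genotype difference.

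One-list peaks were densest right beside the other list. Of the knockout satellites, 189 lay within 1000 bp of their main peak, and 75, 53, 52 and 41 lay in the following steps of 1 kb. Of the control satellites, 203 lay within 1000 bp, followed by 124, 105, 87 and 80. Beyond the limit, from 5000 to 10000 bp, there were 35 knockout and 62.4 control one-list peaks per kb. From 15000 to 20000 bp there were 22 knockout and 41 control peaks per kb. The excess of the first step over the 15000 to 20000 bp band was thus present in both lists.

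**Figure D1:**
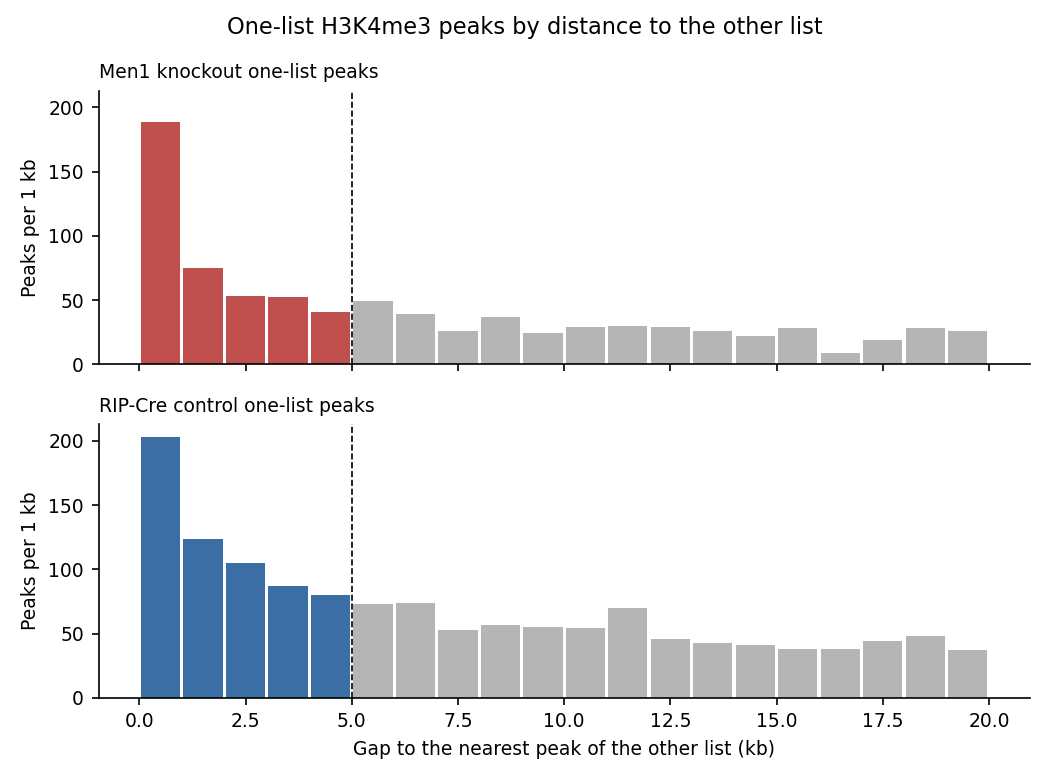
Number of one-list H3K4me3 peaks (vertical axis, peaks per 1 kb step) by gap to the nearest peak of the other list (horizontal axis, kb), for the Men1 knockout list above and the RIP-Cre control list below. Coloured bars left of the dashed line are satellites and grey bars are isolated one-list peaks. The first bar holds 189 knockout and 203 control peaks.

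Knockout satellites had a smaller median gap to their main peaks than control satellites did. The median gap was 1200.5 bp for knockout satellites (95% interval 952 to 1457, quartiles 419 and 2840) and 1712 bp for control satellites (interval 1563 to 1967, quartiles 668 and 3238). Gaps up to 1000 bp were found for 46.1% of knockout satellites (interval 41.2 to 51.1) and 33.9% of control satellites (interval 30.1 to 37.8). Gaps over 4000 bp were found for 10.0% and 13.4%. Control peaks were wider in general, and the part of this in the gap difference was not tested. Between the midpoints of satellite and main peak, the median distance was 2893.75 bp for knockout satellites (interval 2667 to 3162.5). For control satellites it was 3252.5 bp (interval 3080 to 3467.5), and these intervals overlapped. Over all one-to-one pairs of a knockout and a control peak, the knockout border lay a median of 68.0 bp further in, that is, -68.0 bp outward (interval -70.0 to -66.0). Where the satellite's own list marks the main peak, the median gap was 1147 bp for knockout (interval 918 to 1422) and 1685 bp for control satellites (interval 1512 to 1967). Measured in these cases to the own-list peak, the medians were 1126 bp in the knockout (interval 970 to 1394) and 1498 bp in the control list (interval 1283 to 1707), so the intervals overlapped. The gaps of control satellites are then the ones measured from control peaks, so this measure does not remove the width difference. After peaks within 1000 bp of each other were merged in each list, the medians were 2530 bp for knockout satellites (interval 2300 to 2857) and 2796.5 bp for control satellites (interval 2655 to 2958), and the intervals overlapped too. The same held for distance limits of 2500 and 10000 bp and for score minimums of 100.

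The peaks nearest to the edges of the rule are given as single cases. The last knockout satellite inside the limit was chr10:77121107-77121762, 656 bp wide with a score of 80.7 and a gap of 4978 bp. The first knockout peak outside it was chr5:120130147-120130952, with 806 bp, a score of 106 and a gap of 5025 bp. In the control list these were chr15:79226367-79227173, with 807 bp, a score of 88.6 and a gap of 4967 bp, and chr8:124247613-124248160, with 548 bp, a score of 120 and a gap of 5020 bp. At the other edge, the smallest overlap that still made a peak shared was 2 bp, between a 397 bp knockout peak (chr3:122470679-122471075) and an 887 bp control peak (chr3:122469794-122470680). Gaps up to 100 bp were found for 31 knockout and 28 control satellites, and overlaps up to 100 bp for 25 knockout and 19 control peaks that met 1 peak of the other list.

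Satellites were narrow and low-scoring in both lists. The median width was 653 bp for knockout satellites (interval 637 to 677) and 804 bp for control satellites (interval 776 to 831). The isolated one-list peaks, those over 5000 bp from the other list, had medians of 666 bp in the knockout list (interval 656 to 680) and 805 bp in the control list (interval 792 to 816). The width difference between the lists was therefore of like size away from main peaks. Shared peaks had medians of 1740 bp in the knockout and 1938 bp in the control list. Whether a peak overlaps the other list depends in part on its width, so this contrast is not independent of the rule. Satellite widths ran from 341 to 2346 bp in the knockout list and from 363 to 2995 bp in the control list.

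The deposited score of satellites was close to its lowest values. The knockout satellites had a median score of 82.2 (interval 78.8 to 88.4), beside 85.7 for isolated knockout peaks (interval 83.6 to 88.6) and 2002 for shared knockout peaks. The control satellites had a median of 97.0 (interval 91.3 to 104), beside 98.8 for isolated control peaks (interval 95.9 to 102) and 2850 for shared control peaks. In each list the satellites and the isolated peaks thus had overlapping intervals. The lists start at scores of 60.02 and 60.01. The median satellite stood at percentile 8.02 of knockout scores and at percentile 9.75 of control scores. No satellite reached the median score of its list, 1614 in the knockout and 1999 in the control list. A score is a rank within a list here, and levels in different lists were not compared.

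**Figure D2:**
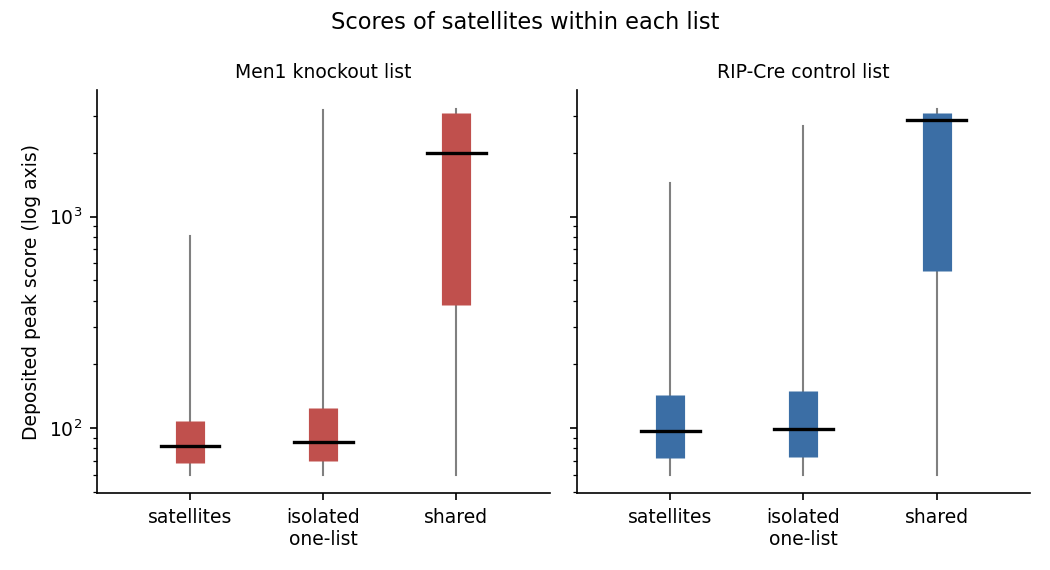
Deposited peak scores (vertical log axis) of satellites, isolated one-list peaks and shared peaks in the Men1 knockout list on the left and the RIP-Cre control list on the right. Black lines are medians, coloured bars run between the quartiles and thin lines between the lowest and highest score. Satellites have medians of 82.2 in the knockout and 97.0 in the control list, far below the shared peaks.

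Most main peaks were marked in both genotypes. The knockout list also marked the control main peak of 365 of 410 knockout satellites, or 89.0% (interval 85.6 to 91.9). Over the whole control list, 87.3% of peaks were overlapped by a knockout peak. The control list also marked the knockout main peak of 553 of 599 control satellites, or 92.3% (interval 89.9 to 94.3), beside 91.2% over the whole knockout list. The shares at satellites were thus near those of all peaks. Another peak of the satellite's own list lay within 5000 bp of 385 knockout satellites (93.9%) and 568 control satellites (94.8%). The nearest own-list peak lay at a median of 1046 bp and 1586 bp over all satellites. These counts largely restate the marked main peaks, which lie within 5000 bp by the rule, and the share for other peaks was not taken.

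The remaining main peaks were themselves one-list peaks, so that peaks of both lists, most of them weak, faced each other without touching. This held for 45 knockout and 46 control satellites, and in 39 cases the peaks were each other's nearest. In these cases the knockout satellites had a median width of 650 bp and their control main peaks 805 bp. The gap between them had a median of 1710 bp for the knockout satellites (interval 940 to 2731) and 1950 bp for the control satellites (interval 1039 to 2731). The control main peaks had a median score of 86.8 within the control list, and the knockout main peaks of control satellites 83.4 within the knockout list. The median scores of both sides were therefore near the lowest scores of their lists. This was so for isolated one-list peaks too, with medians of 85.7 in the knockout and 98.8 in the control list. Single scores reached 439 for a knockout satellite and 441 for a control main peak, each within its own list.

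Main peaks were of ordinary median width, with an excess of very broad ones. The control main peaks of knockout satellites had a median width of 1671 bp (interval 1502 to 1912), beside 1769 bp for all control peaks. The knockout main peaks of control satellites had a median of 1752 bp (interval 1621 to 1849), beside 1630.5 bp for all knockout peaks. The broadest 5% of control peaks, 3885 bp or wider, held the main peaks of 51 knockout satellites, or 12.4% (interval 9.40 to 16.0). The control peaks nearest to isolated knockout peaks fell in this class in 4.55% of cases (interval 3.52 to 5.78). The broadest 5% of knockout peaks, 3631 bp or wider, held the main peaks of 70 control satellites, or 11.7% (interval 9.22 to 14.5). For isolated control peaks the share was 7.77% (interval 6.66 to 8.99), also above 5%. Broad domains tend to lie at genes of cell identity, as background.

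For knockout satellites the excess of broad main peaks lay at short gaps. The share of broad main peaks was 16.4% at gaps up to 1000 bp (interval 11.4 to 22.5), 17.3% from 1000 to 2000 bp (interval 9.57 to 27.8) and 4.79% beyond 2000 bp (interval 1.95 to 9.63). For control satellites it was 13.8% (interval 9.37 to 19.3), 9.68% (interval 5.10 to 16.3) and 11.0% (interval 7.57 to 15.4) in the same steps. The intervals of the first and the last step did not overlap for the knockout satellites and did overlap for the control satellites.

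**Figure D3:**
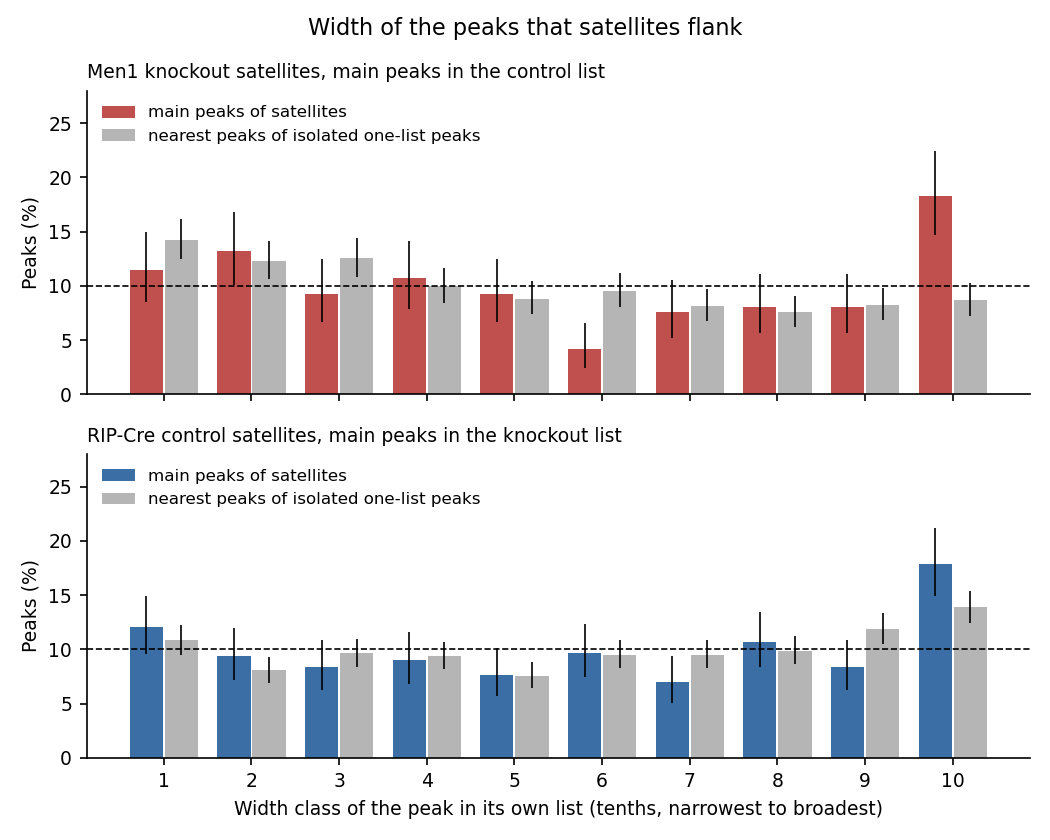
Share of peaks (vertical axis, percent) in each of 10 equal width classes of the other list (horizontal axis, narrowest to broadest), for the peaks nearest to Men1 knockout one-list peaks above and nearest to RIP-Cre control one-list peaks below. Coloured bars are main peaks of satellites, grey bars are the nearest peaks of isolated one-list peaks, thin lines are exact 95% intervals and the dashed line is the share in the whole list. The broadest class holds 18.3% of the main peaks of knockout satellites and 17.9% of those of control satellites.

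The main peaks of knockout satellites were lower in score than those of control satellites, each ranked within its own list. The control main peaks stood at a median percentile of 34.7 among control peaks (interval 31.1 to 39.4). The knockout main peaks stood at a median percentile of 50.5 among knockout peaks (interval 45.4 to 54.4). A low rank was also found for the control peaks nearest to isolated knockout peaks, with a median percentile of 38.7 (interval 36.5 to 41.6). The knockout peaks nearest to isolated control peaks were at 53.3 (interval 50.9 to 56.4). The intervals of satellites and isolated peaks overlapped in both lists. A tied top score of 3100 or more was carried by 30.0% of the main peaks of knockout satellites (interval 25.6 to 34.7), beside 41.8% of all control peaks. It was carried by 34.9% of the main peaks of control satellites (interval 31.1 to 38.9), beside 34.0% of all knockout peaks. Scores under 100 were found for 15.4% of the control main peaks of knockout satellites, beside 10.2% of all control peaks, and for 15.5% of the knockout main peaks of control satellites, beside 11.7% of all knockout peaks.

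Most satellites were narrower than what they flanked. The main peak was wider in 372 of 410 knockout cases, or 90.7% (interval 87.5 to 93.4), and in 487 of 599 control cases, or 81.3% (interval 77.9 to 84.3). The median ratio of main peak to satellite width was 2.47 for knockout satellites (interval 2.20 to 2.68) and 2.02 for control satellites (interval 1.84 to 2.15). Isolated knockout peaks had a median width of 666 bp beside 1769 bp for all control peaks. Isolated control peaks had 805 bp beside 1630.5 bp for all knockout peaks. The share with a wider nearest peak was not taken for isolated peaks, so no trait of satellites is read from these values. In 38 knockout and 110 control cases the satellite was the wider interval, so that the word satellite describes its place and not its size.

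Control main peaks of knockout satellites were more often covered by several knockout peaks than other control peaks were. Among control peaks that the knockout list marked, 27 of 342 distinct main peaks met 2 or more knockout peaks, or 7.89% (interval 5.27 to 11.3). Among the other control peaks marked by the knockout list the count was 516 of 18175, or 2.84% (interval 2.60 to 3.09). Over all control peaks, marked or not, the share was 2.56%. The difference was present for control peaks under 2000 bp, at 3.91% (interval 1.59 to 7.89) beside 1.03% (interval 0.833 to 1.25). It was also present from 2000 to under 4000 bp, at 9.84% (interval 5.19 to 16.6) beside 3.60% (interval 3.19 to 4.04). At 4000 bp or more the intervals overlapped, with 19.5% (interval 8.82 to 34.9) and 15.7% (interval 13.4 to 18.3).

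The reverse was not seen for control satellites. Of the 540 distinct knockout main peaks that the control list marked, 2 met 2 or more control peaks, or 0.370% (interval 0.0449 to 1.33). Among the other marked knockout peaks it was 150 of 18396, or 0.815% (interval 0.691 to 0.956), and over all knockout peaks 0.732%. The interval for main peaks contained both of these values. The excess of main peaks in several pieces was thus found for knockout satellites, 27 main peaks in all, and not for control satellites. Both counts rest on which intervals the caller joined, and the part of read depth was not tested.

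Where the main peak formed a one-to-one pair, its borders were compared on the side of the satellite, on the far side, and over all pairs. The border difference is the satellite's own list minus the other list, counted outward. Over 323 pairs at knockout satellites the knockout border lay at a median of -21.0 bp on the satellite side (interval -51.0 to -7.00) and -58.0 bp on the far side (interval -77.0 to -35.0), beside -68.0 bp over all borders. Over 513 pairs at control satellites the control border lay at a median of 108 bp on the satellite side (interval 88.0 to 126) and 76.0 bp on the far side (interval 62 to 95), beside 68.0 bp over all borders. In both lists the own border was thus further out towards the satellite than over all pairs. The rule requires the other list's peak to end before the satellite, so the satellite side is not a test against all pairs. The far side did not differ from all pairs beyond its interval.

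Counts of borders gave a like picture, except that the far side at knockout satellites was also above all borders. The knockout border was the outer one on the satellite side in 42.7% of pairs (interval 37.3 to 48.3) and on the far side in 37.5% (interval 32.2 to 43.0), beside 31.0% of all borders. The control border was the outer one on the satellite side in 75.2% (interval 71.3 to 78.9) and on the far side in 70.0% (interval 65.8 to 73.9), beside 68.8% of all borders. Set against the far side of the same peak, the satellite side showed little. The paired difference had a median of 6.00 bp at knockout satellites (interval -30 to 45) and 25 bp at control satellites (interval -7.00 to 54.0), and both intervals contained 0. The own peak on the main peak was the narrower one in 61.0% of pairs at knockout satellites (interval 55.4 to 66.3), while the knockout peak was narrower in 73.7% of all pairs. At control satellites the control peak was the wider one in 79.1% of pairs (interval 75.4 to 82.6).

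**Figure D4:**
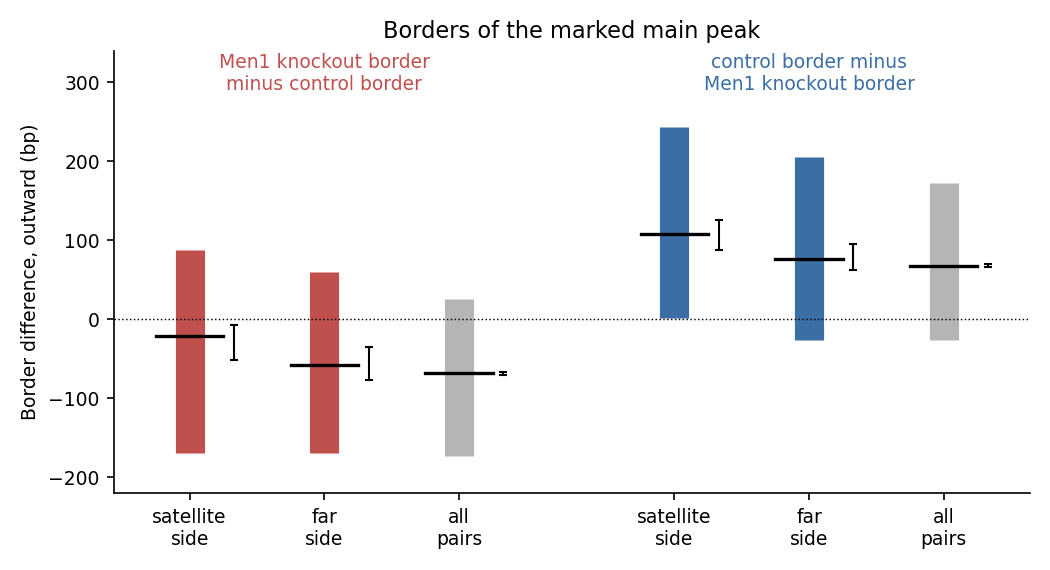
Border difference in bp, outward positive (vertical axis), between the satellite's own list and the other list at one-to-one main peaks, on the satellite side, on the far side and over all pairs, with Men1 knockout satellites on the left and RIP-Cre control satellites on the right. Bars run between the quartiles, horizontal lines are medians and brackets are 95% intervals of the median. The satellite side has medians of -21.0 bp in the knockout and 108 bp in the control panel, both above the -68.0 and 68.0 bp of all pairs. The rule requires the other list's peak to end before the satellite, so this is a description only.

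Peaks that stood beside a wider peak of their own list were also counted, whether shared or not. Within 5000 bp of a wider knockout peak there were 2573 knockout peaks, of which 394 had no control partner, or 15.3% (interval 13.9 to 16.8). All other autosomal knockout peaks had no partner in 7.82% of cases (interval 7.44 to 8.22). Within 5000 bp of a wider control peak there were 2426 control peaks, of which 621 had no knockout partner, or 25.6% (interval 23.9 to 27.4). For all other autosomal control peaks the share was 11.1% (interval 10.6 to 11.5). These shares were not matched on width. Flanking peaks were the narrower ones, with a median width of 960 bp against 1751 bp for all other knockout peaks, and of 1120 bp against 1881 bp for all other control peaks.

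The shares were therefore also taken within width classes, a comparison added after the values above were seen. Among knockout peaks under 700 bp, 34.9% of the flanking peaks had no control partner (interval 31.3 to 38.6), against 46.5% of the others (interval 44.1 to 48.9). From 700 to under 1000 bp the shares were 18.5% of the flanking (interval 15.7 to 21.7) and 20.9% of the other knockout peaks (interval 19.2 to 22.6). From 1000 to under 2000 bp they were 2.92% (interval 1.98 to 4.15) and 2.24% (interval 1.91 to 2.61). In the knockout list the higher share of flanking peaks over all widths was thus not seen in the narrow classes, and under 700 bp the order was the other way round. Among control peaks under 700 bp, 59.2% of the flanking peaks had no knockout partner (interval 54.1 to 64.3), against 61.0% of the others (interval 58.0 to 64.0). From 700 to under 1000 bp the shares were 42.7% of the flanking (interval 38.7 to 46.7) and 41.0% of the other control peaks (interval 39.0 to 43.0). From 1000 to under 2000 bp they were 11.5% (interval 9.75 to 13.5) and 6.40% (interval 5.84 to 7.01). At 2000 bp or more, 1 of 186 flanking and 9 of 7192 other knockout peaks, and 7 of 284 flanking and 19 of 8521 other control peaks, had no partner. In the control list the intervals of flanking and other peaks overlapped in both classes under 1000 bp and did not overlap in the 2 wider ones. Within these 2 wider classes the flanking control peaks were still the narrower ones. Their median widths were 1389 against 1499 bp and 2345 against 2660 bp, so width was not fully matched.

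A share of satellites stood between peaks of the other list. Peaks of the other list lay within 5000 bp on both sides of 64 knockout satellites, or 15.6% (interval 12.2 to 19.5), and 60 control satellites, or 10.0% (interval 7.73 to 12.7). Each satellite has a near peak by the rule, so shared peaks with a further peak of the other list within 5000 bp are the like base. Such peaks lay on both sides for 384 of these 3724 shared knockout peaks and for 356 of these 3438 shared control peaks. Over all shared peaks, not chosen for a near neighbour, the shares were 2.03% and 1.92%. No trait of satellites is read from these values. Neither interval for the side of the satellite excluded an even split. The satellite was at the lower coordinate in 46.1% of knockout cases (interval 41.2 to 51.1) and 53.8% of control cases (interval 49.7 to 57.8).

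Most main peaks had a single satellite. The 410 knockout satellites belonged to 383 control main peaks, of which 25 had 2 or more, and 6 of these had satellites on both sides. The 599 control satellites belonged to 584 knockout main peaks, of which 15 had 2, and 3 of these had them on both sides. Satellites of both lists met at 14 regions marked in both genotypes, where they formed 18 pairs on opposite sides of the region. Pairs on the same side do not arise under the rule, since the farther satellite would then have the nearer one as its main peak. The opposite sides were thus fixed by the rule.

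Among the control main peaks, 2 had 3 knockout satellites and 23 had 2, and of these 23 the 2 widest are named here. The control peak chr18:37179559-37181160, 1602 bp wide with a score of 403, had 3 knockout satellites, at chr18:37176878-37177593, chr18:37181450-37182339 and chr18:37185461-37186341, with gaps of 1965, 289 and 4300 bp. The control peak chr10:81121519-81122231, 713 bp wide with a score of 62.2, also had 3, with gaps of 2964, 1457 and 738 bp, and no knockout peak overlapped it. Both of these had satellites on either side. The control peak chr7:13428360-13436016 had 2 knockout satellites on one side, with gaps of 952 and 268 bp, where 3 knockout peaks with a summed width of 5087 bp faced its 7657 bp. The control peak chr19:23214487-23219646 had 2 on one side, with gaps of 687 and 1584 bp, and a knockout peak of 5559 bp faced its 5160 bp.

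Of the 15 knockout main peaks with 2 control satellites, the 4 widest are named here, and each of these 4 had a score of 3100. The knockout peak chr5:102084941-102094961 was 10021 bp wide, faced a control peak of 10157 bp, and had control satellites at gaps of 722 and 1574 bp. The knockout peak chr19:32669361-32676195, 6835 bp wide beside 7119 bp in the control list, had them at 1823 and 3130 bp. Both pairs lay on a single side. The same was true of chr5:23605658-23608876, 3219 bp wide beside 3296 bp, with gaps of 556 and 1678 bp. It was true too of chr5:149739327-149741289, 1963 bp wide beside 2167 bp, with gaps of 3423 and 2744 bp. In each of these pairs the satellites scored between 66.2 and 134.

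The highest-scoring knockout satellites were few and wide. The first was chr7:133909884-133911729, with a width of 1846 bp and a score of 805, 2619 bp from its main peak. That main peak was 1538 bp wide in the control list, and the knockout peak that overlapped it was 2064 bp wide. The second, chr4:153323862-153325671, was 1810 bp wide, scored 520 and lay 4775 bp from its main peak, where the knockout list had 2042 bp and the control list 2315 bp with the tied score. Both flanked regions that were marked in both genotypes. The third, chr9:43731331-43733676, was also the widest knockout satellite, with 2346 bp and a score of 439. Its main peak in the control list, 2384 bp away, had 635 bp, scored 82.2 and carried no knockout peak, so the knockout interval was by far the larger one. The fourth, chr1:89051938-89053179, with 1242 bp and a score of 374, lay 890 bp from a 563 bp control peak, where the knockout list had 853 bp.

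The next knockout satellites by score mostly lay within 500 bp of their main peak. These were chr18:72509756-72511070 with a score of 347 and a gap of 285 bp, chr3:103377003-103378265 with 321 and 478 bp, and chr12:57795573-57797151 with 301 and 311 bp. At the chromosome 12 region, the main peak was 849 bp wide in the control list, and the knockout peak that overlapped it was 1527 bp wide. The eighth was chr7:52966835-52967904, with a score of 263 and a gap of 1281 bp. A further wide one, chr2:85034575-85036578, had 2004 bp and a score of 246. Its main peak had 2033 bp in the knockout list, against 664 bp in the control list. The scores there were 1061 within the knockout list and 66.6 within the control list, and their levels were not compared. Here the main peak was wider in the knockout list, and the flanking peak was called in that list alone.

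Of the 8 highest-scoring control satellites, the first 4 flanked knockout peaks with a score of 3100. The first, chr2:105499427-105502421, was also the widest of all satellites, with 2995 bp and a score of 1443. It lay 4097 bp from a knockout peak of 22264 bp (chr2:105506519-105528782), where the control list had 2 peaks with a summed width of 23119 bp. The second, chr2:181497713-181500204, had 2492 bp, a score of 1008 and a gap of 889 bp to a knockout peak of 4487 bp, beside 3927 bp in the control list. The knockout peak reached further towards the satellite than the control peak did, since the gap to the control peak was 1105 bp. The third, chr1:153931416-153932664, had a score of 713 and a gap of 3397 bp. The fourth, chr14:104052251-104053896, had a score of 636 and lay 965 bp from the knockout peak but 179 bp from the control peak, which had 4197 bp against 2944 bp in the knockout list.

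The other control satellites named by score lay 1542 to 4538 bp from the knockout list. These were chr19:57492052-57493607 with a score of 550 and a gap of 4240 bp, chr5:115929677-115930956 with 549 and 2586 bp, and chr17:34117957-34119439 with 533 and 1542 bp. The eighth, chr7:86985912-86987926, had 2015 bp and a score of 526, 4538 bp from a main peak of 1060 bp in the knockout list and 1442 bp in the control list. The chromosome 19 satellite had the weakest main peak of the 8, which in the knockout list had 621 bp and scored 69.6. Among the widest were also chr2:91028898-91031331, with 2434 bp and a gap of 4617 bp, and chr4:138942300-138944730, with 2431 bp and a gap of 3472 bp. The main peak on chromosome 4 had 3342 bp in the knockout list and 4365 bp in the control list.

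**Figure D5:**
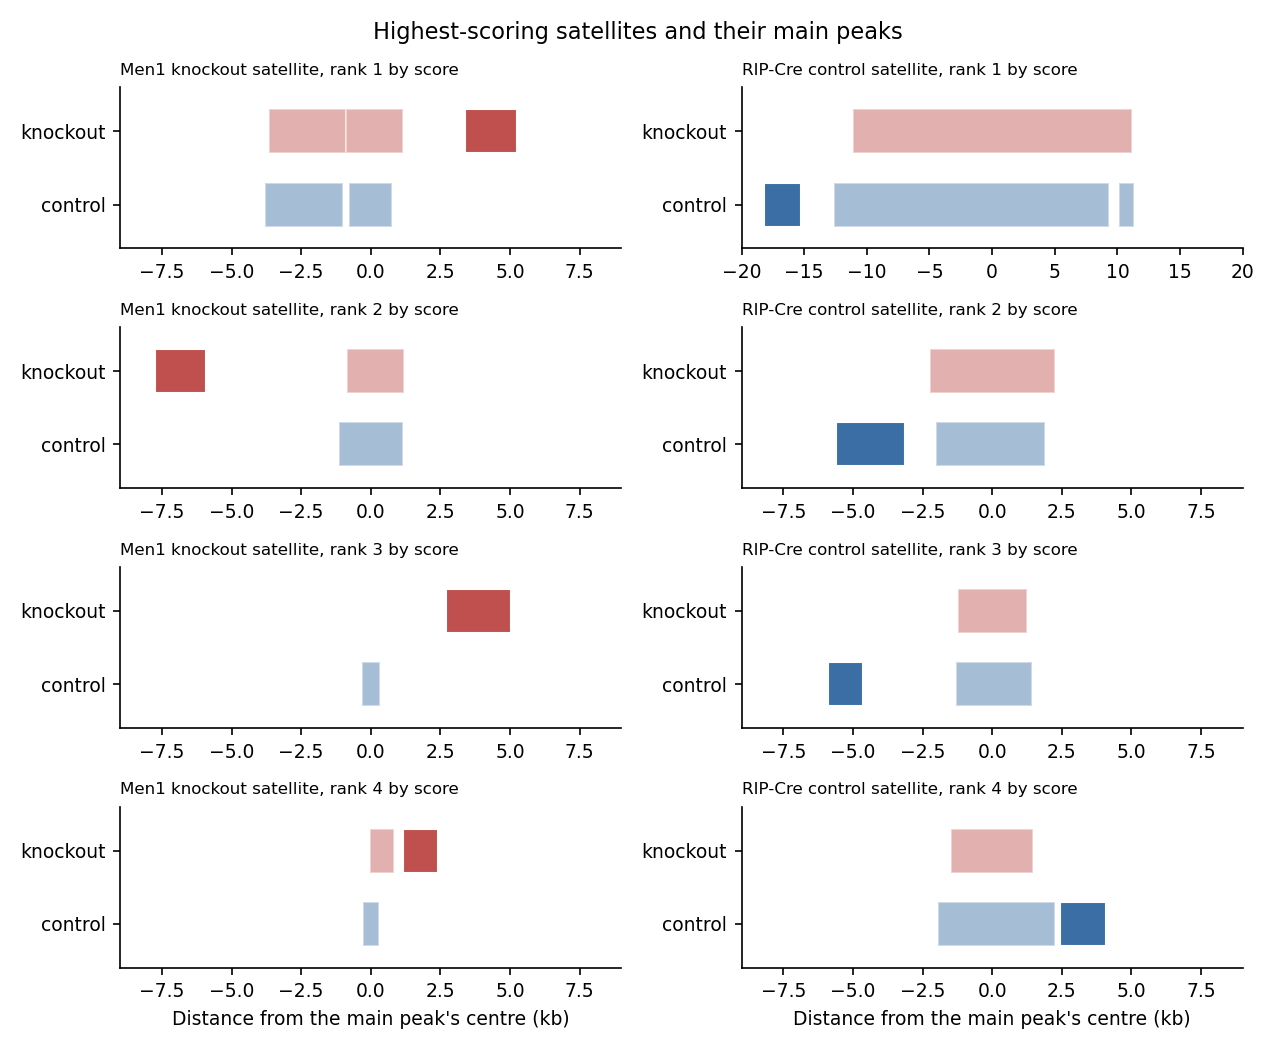
Peaks of the Men1 knockout list (upper row of each panel) and the RIP-Cre control list (lower row) around the 4 highest-scoring knockout satellites on the left and the 4 highest-scoring control satellites on the right, by distance from the main peak's centre in kb (horizontal axis). Dark boxes are the satellites and light boxes other peaks, and the first control panel has a wider axis than the others. In 7 of the 8 panels the satellite's own list also marks the main peak, and the third knockout satellite is the exception.

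The closest satellites all but touched the other list. The knockout satellite chr6:149359298-149359956, 659 bp wide with a score of 232, began 2 bp beyond a 2511 bp control peak, and 53 bp from the knockout peak of 2324 bp on the same region. Gaps of 11 bp were found at chr10:59361953-59362502 and chr8:85295802-85296505, and a gap of 17 bp at chr12:15819819-15820459. At chromosome 12 the knockout peak of 3655 bp ended 526 bp from the satellite, while the control peak of 4184 bp reached to within 17 bp of it. In this region the control interval thus filled most of the space that separated the knockout pieces.

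Among control satellites the smallest gap was 1 bp, at chr11:83661627-83662467, beside a 5662 bp knockout peak, where the control list had 6208 bp. The others were chr3:31204676-31205391 with a gap of 4 bp, chr13:67710967-67711564 with 6 bp and chr10:80895737-80896328 with 9 bp. At chromosome 3 the knockout interval was 676 bp wide with a score of 86.8 within the knockout list. The control peak that covered it was 4664 bp wide and had the tied score of 3100 within the control list. These were not a one-to-one pair, since the control peak also overlapped knockout marking beside this interval.

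A few windows of 1 Mb held several satellites each, and those given here were picked out once their values were known. Most satellites lay elsewhere, since 377 knockout and 585 control satellites were left without the chromosome 18 and chromosome 10 windows. The window of 1 Mb with the most knockout satellites was on chromosome 18 from 37000001 to 38000000. It held 21 of the 81 knockout peaks there, with widths of 461 to 1556 bp, scores of 63.7 to 181 and 16 main peaks. The same window held 8 control satellites among 60 control peaks. Next was chromosome 10 from 81000001 to 82000000, with 12 knockout satellites among 54 knockout peaks and 6 control satellites among 39 control peaks. The window with the most control satellites was on chromosome 17 from 22000001 to 23000000, with 5 knockout satellites among 39 knockout peaks and 9 control satellites among 41 control peaks. In these windows both lists had satellites, and on chromosomes 18 and 10 the knockout list had more peaks in all.

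By chromosome, the share of knockout peaks that were satellites was highest on chromosome 18, at 4.50% (30 of 666, interval 3.06 to 6.37), and lowest on chromosome 11, at 1.22% (interval 0.749 to 1.88). Outside the chromosome 18 window the share there was 1.54% (9 of 585, interval 0.706 to 2.90), so the high value rested on that window. The control share on chromosome 18 was 3.95% (interval 2.62 to 5.69), and 3.04% outside the window (interval 1.84 to 4.71). Without the chromosome 18 and 10 windows the median gaps were 1204 bp for knockout satellites (interval 952 to 1529) and 1728 bp for control satellites (interval 1563 to 1990).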

How the data were processed

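The submitters' processing notes name mm9 as the mouse build, MACS 1.4.2 and Bowtie. They do not cover the use of input as control, filters or pooling of animals. The authors deposited 1 list of peaks per library, with a score per peak, and no read counts, so depth is unknown. The scale of the deposited score is not stated, and scores were compared within a list only. The genotype, age and mark in its name tied each list to a sample. Of the per-sample columns, 0 went unused.

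Positions are given from 1. Peaks on the 19 autosomes were compared in Python 3.11.15 with an overlap of at least 1 bp and a distance limit of 5000 bp, counted as the bases between the ends. The main peak is the nearest peak of the other list, the wider one in a tie. Bedtools 2.31.1 counted the same 410 and 599 satellites. Functions were tested on simulated data. Shares carry exact (Clopper-Pearson) 95% intervals and medians carry order-statistic 95% intervals. These treat peaks as independent and cover counting error only, not animals or libraries. With 1 library per genotype no p-value was computed.

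The members, comparisons and alternatives were chosen with earlier results of these data known. Named regions are, per list, the 8 highest-scoring and 4 widest satellites, the 4 with the smallest gap, and the 4 main peaks with the most satellites, the wider first in a tie. No gene is named, since the gene table at hand describes another build. The alternatives were other distance limits, score minimums, equal list lengths, merging, sex chromosomes, another choice of main peak and a stricter overlap.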

Additional observations from a re-analysis of the deposited data

How the results depend on the processing

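Of the 120 values recomputed under the alternatives, 80 stayed within the 95% interval of the reported value (for counts, within 1.5 times) and 40 moved. Satellite counts came to 370 control satellites with a limit of 2500 bp and 911 with 10000 bp. They were 182 knockout satellites when both lists were held to a score of 100 or more, 137 knockout and 290 control satellites when only satellites were held to it, and 227 and 372 after merging within 1000 bp. With lists of equal length there were 437 knockout and 528 control satellites, closer to each other than the 410 and 599 reported. Knockout satellites were fewer than control satellites under each alternative run. The median gap was 691 and 833.5 bp (knockout, control) with 2500 bp, 2530 and 3366 bp with 10000 bp, and 2530 and 2796.5 bp after merging, and 1971 bp for control satellites with scores of 100 or more in both lists. The distance limit moves these by construction, and merging removes short gaps. The knockout median stayed the lower under each alternative run. The intervals of the lists overlapped with either distance limit, with either score minimum and after merging. With 2500 bp they were 563 to 774 bp (knockout) and 725 to 1006 bp (control). With 10000 bp they were 2142 to 2964 and 2940 to 3695 bp. They did not overlap with equal list lengths, with X and Y included, or without the chromosome 18 and 10 windows. With the widest peak within 5000 bp as main peak, the main peak width was 1986.5 and 1873 bp, and the own list marked it in 92.2% and 94.3% of cases. For knockout satellites held to a score of 100 or more, the median main peak width was 1309 bp. The own list marked the main peak in 83.3% and 89.8% of cases after merging, and in 94.6% for control satellites with scores of 100 or more in both lists. Score minimums raise scores and widths by construction. With the minimum in both lists the median scores were 132 and 157 and the widths 881 and 1000 bp, and with the minimum for satellites only 119 and 144, and 875 and 977 bp. Equal list lengths gave control satellites a median score of 106 and a width of 843 bp. Leaving out the chromosome 18 and 10 windows was chosen after seeing the data and moved none of the 16 values recomputed. Width classes were also added after seeing the data, and moved the one-list share of flanking peaks to 34.9, 18.5, 2.92 and 0.538% (knockout) and 59.2, 42.7, 11.5 and 2.46% (control) in the classes under 700, 700 to under 1000, 1000 to under 2000, and 2000 bp or more. Other causes were not tested. No paired analysis was possible because there is a single library of either genotype, and depth is unknown, so absent peaks may lie under detection.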

Other observations

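Across satellites, score followed width, with a Spearman rho of 0.69 over 410 knockout satellites and 0.74 over 599 control satellites. The points share a library and a peak caller, and the values are given as a description. The gap was hardly related to either measure. The rho of gap and score was 0.04 for knockout and 0.07 for control satellites, and the rho of gap and width was 0.05 and 0.03. The rho of main peak width and satellite width was -0.08 for knockout and 0.08 for control satellites. With the X and Y chromosomes included there were 418 knockout and 618 control satellites.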
